A study of Mus musculus with 6 samples.

Results

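The genes described here carry glucose into the cell, break it down to lactate and divert it into pentose phosphates. They are 34 mouse genes fixed by name, of 21934 genes named on the array. The list was set by gene symbol, with earlier results of these data known. At least 1 probe carried the name of 29 of them, in its current or older form. Of these, 27 had a probe above the detection limit, an intensity of 34.7, on at least 2 of the 6 arrays and were tested, 25 of them with a probe above it on all 6. Slc16a1 and Pgm2 had probes that did not reach the limit on 2 arrays. No probe here carried the names of Hk2, Gpi1, Eno1, Ldhb or G6pdx, which says nothing about their expression.

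Total RNA came from CD8+ T cells that had been isolated from spleens of C57BL/6 mice aged 6 weeks, and was hybridised to Illumina bead arrays. Before activation the cells received epoxomicin at 0.5 µM, which blocks the proteasome, or 1 µM E9, a code-named compound given as an activator of the proteasome, or DMSO, the vehicle, with 2 arrays in each group. All 3 groups were then activated for 3 days on immobilized antibodies to CD3 and CD28, at 5 µg/ml, in medium that held IL-2. All arrays were thus of activated cells, with no resting or unactivated sample here. The series calls the duplicates biological and the cells CD8+CD44+. It gives neither the animals behind each array nor the length of the pre-treatment, so p-values measure the spread between these arrays.

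Resting T cells use little glucose, and cells activated through the antigen receptor and CD28 take up more of it and turn much of it into lactate even where oxygen is present. Uptake runs through the transporters GLUT1 and GLUT3, and the committed step of glycolysis is phosphofructokinase. The pentose phosphate pathway leaves glycolysis at glucose-6-phosphate. Its oxidative branch makes NADPH, and its non-oxidative branch exchanges sugars between ribose-5-phosphate and glycolysis. Many genes of glycolysis are known targets of hypoxia-inducible factor 1 (HIF-1) and of MYC.

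The authors had brought all arrays to the same set of intensities, with a median of 34.2, so that a change in total RNA cannot be seen. Of all 13253 tested genes 7.67% rose and 7.77% fell with E9, and 0.724% rose and 0.566% fell with epoxomicin (limma, adjusted p under 0.05). All 9 measured T cell identity genes were above the limit on all 6 arrays, and 7 of the 9 rose with E9 and 1 rose with epoxomicin. Of them, Cd8b1 lay between 4752.9 and 7588.1, while the probe for Cd8a was dim, between 36.5 and 48.5. Of 7 measured B cell markers 5 fell with epoxomicin and 2, Cd79b and H2-Ab1, fell with E9. The summed intensity of the 7 was 920.3 and 1067.3 with epoxomicin, 1437.5 and 1554.4 with E9, and 1260.2 and 1431.7 with DMSO. Most of it was Ighm, which lay between 598.9 and 891.2 and passed in no comparison. Igk-C, which fell with epoxomicin, had 49.1 and 48.1 there, 241.6 and 377.7 with E9, and 199.1 and 229.0 with DMSO. Of 3 tested genes listed as NK cell markers 2, Eomes and Klra4, rose with E9. Summed levels of the 4 with a probe were 1139.7 and 1095.7 with epoxomicin, 1538.7 and 1738.0 with E9, and 966.0 and 851.6 with DMSO. Most of each sum was Eomes, which lay between 758.1 and 1627.2, while Klra4 lay between 31.9 and 47.9 and Klrb1c between 32.9 and 36.4. The sums thus followed Eomes and do not measure NK cells. Among CD4 and regulatory T cell markers 1 of 3 fell with E9, and among neutrophil markers 1 of 4 rose, with sums over all 6 arrays of 343.3 to 419.2 and 190.2 to 218.4. No myeloid, erythroid or platelet marker passed, with sums of 259.3 to 289.8 and 191.3 to 202.9. Of the listed markers, Cd40lg, Ncr1, Itgam, Cd14, Itgax, Fcgr3, S100a9, Ngp, Hba-a1, Alas2 and Ppbp were not above the limit on any array. Other markers of the same lists were. Foxp3, the regulatory T cell marker that fell with E9, lay between 246.8 and 317.0, and Cd68 between 34.9 and 50.7. S100a8, the neutrophil marker that rose with E9, had 37.7 and 47.2 there. The part of other cell types in the results below was not tested. In such bulk RNA fewer cells of a type and less RNA per cell cannot be told apart.

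Promoter sequences are shown for 3 members that passed the test and whose promoter holds the letters ACGTG. These letters are 1 form of the core of the element that HIF-1 binds, and its other forms were not searched. The sequences come from RefSeq on build GRCm38.p6, cover 250 bases before and 50 after an annotated transcript start, and run 5′ to 3′ along the gene's strand with each ACGTG in capitals.
Slc2a1, chr4:119108495-119108794, plus strand: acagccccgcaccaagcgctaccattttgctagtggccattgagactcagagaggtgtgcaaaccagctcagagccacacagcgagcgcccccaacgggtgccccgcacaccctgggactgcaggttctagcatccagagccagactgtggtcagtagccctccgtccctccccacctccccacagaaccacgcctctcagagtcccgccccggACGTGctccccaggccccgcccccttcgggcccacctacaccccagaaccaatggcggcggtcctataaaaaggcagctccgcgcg
Hk1, chr10:62340372-62340671, minus strand: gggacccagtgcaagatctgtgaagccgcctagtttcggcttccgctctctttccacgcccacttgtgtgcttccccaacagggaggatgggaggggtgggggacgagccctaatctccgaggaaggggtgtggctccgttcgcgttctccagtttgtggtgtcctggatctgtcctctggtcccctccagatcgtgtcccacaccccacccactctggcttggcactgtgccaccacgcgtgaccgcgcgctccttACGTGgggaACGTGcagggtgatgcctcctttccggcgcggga
Slc16a3, chr11:120948817-120949116, plus strand: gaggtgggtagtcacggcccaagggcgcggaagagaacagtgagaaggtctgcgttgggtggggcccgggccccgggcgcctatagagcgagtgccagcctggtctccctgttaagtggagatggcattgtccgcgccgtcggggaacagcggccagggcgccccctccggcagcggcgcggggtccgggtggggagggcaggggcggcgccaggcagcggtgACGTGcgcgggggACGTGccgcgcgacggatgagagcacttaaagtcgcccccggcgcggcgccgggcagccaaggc
The match in Slc2a1 begins 36 bases before the start, and those in Slc16a3 begin 27 and 14 bases before it. The Hk1 sequence belongs to 1 of its 2 listed starts, where the matches begin 7 and 16 bases after the start. Promoters matched 33 of the 34 members, with 47 sequences, since some genes have several starts, and Slc2a3 was not matched. ACGTG on either strand was in 20 of these 47 (42.6%), against 19.6% of all 32851 promoters in the table. The letters CACGTG, the E-box that MYC binds and a longer form of the same match, were in 4 of the 47 (8.51%), against 7.15% of all. Among the 6 promoters of the 5 matched members that passed, 3 held ACGTG and 0 held CACGTG, and those of Pfkl and Pfkp held neither. Members that did not pass held matches too, and 1 of the promoters of Ldha held 5, with a CACGTG counted once on each strand. These are matches of letters and do not show binding.

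With epoxomicin 3 of the 27 tested members fell and 0 rose, against 0.566% and 0.724% of all 13253 tested genes, 1.29% in all (limma, adjusted p under 0.05). At an unadjusted p under 0.05, 9 members were lower, against 5.7% of all tested genes, and 1 was higher, against 744 of all 13253. The 3 were the glucose transporter genes Slc2a1 and Slc2a3 and the phosphofructokinase gene Pfkp. With E9 5 of the 27 fell and 0 rose, against 7.77% and 7.67% of all tested genes, 15.4% in all. At an unadjusted p under 0.05, 11 members were lower, against 14.4% of all tested genes, and 1 was higher, against 1658 of all 13253. The 5 were Slc2a1, Slc2a3, the hexokinase gene Hk1, the phosphofructokinase gene Pfkl and the lactate exporter gene Slc16a3. The median log2 fold change of the tested members was -0.14 with epoxomicin and -0.16 with E9, while that of all tested genes was 0.0018 and -0.0061. Both comparisons share the DMSO arrays.

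Members of each step of the pathway are given in order below, and the plot of fold changes in pathway order shows them side by side. Fold changes are on the log2 scale after background correction with an offset of 50, which understates the change of dim genes. SE is the standard error of the model, with 2 arrays per group.

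**Figure D1:**
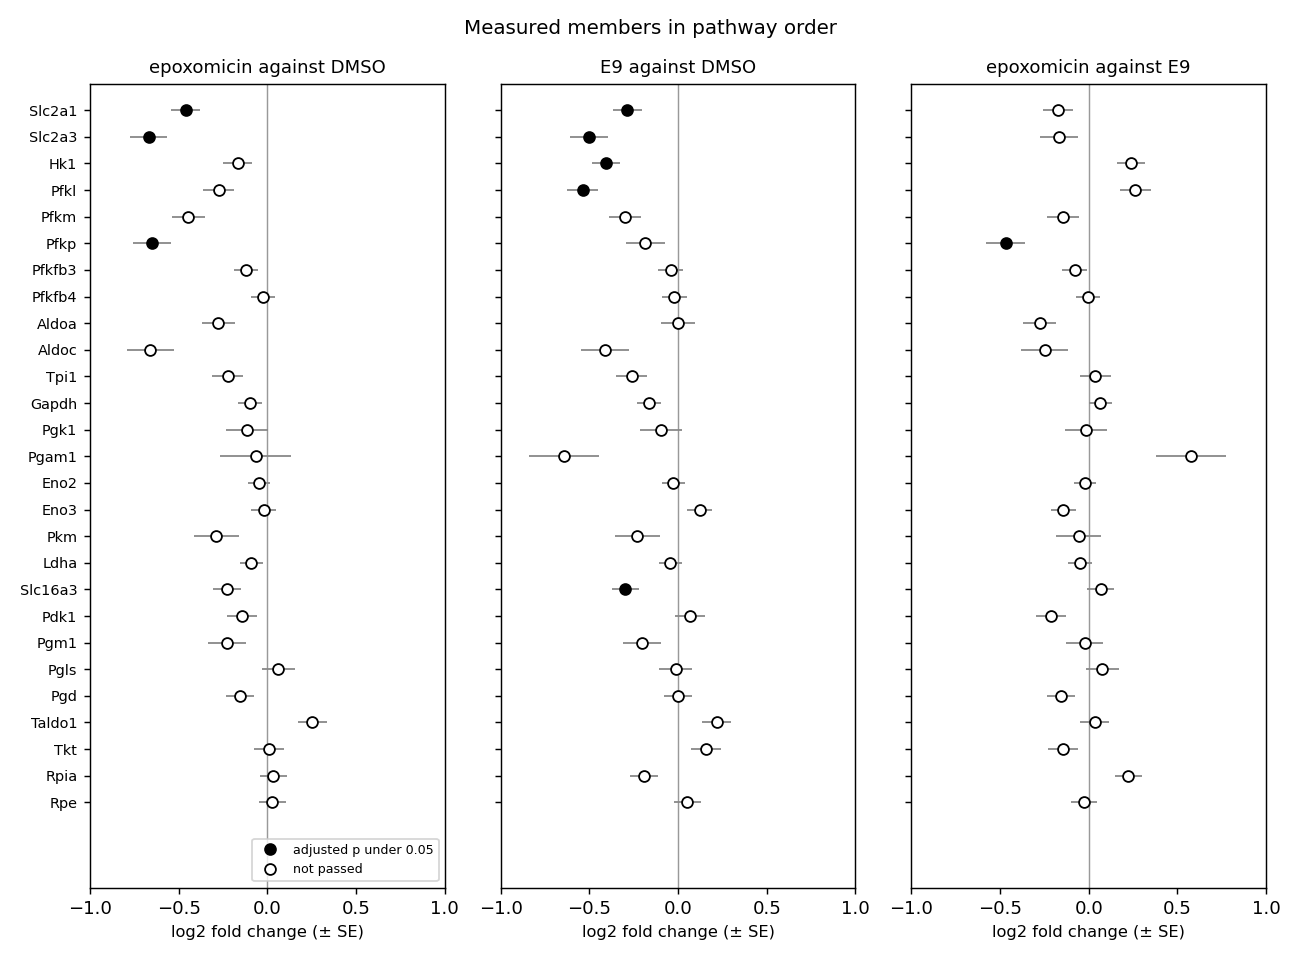
Log2 fold change (x axis, bars ± SE of the model, 2 arrays per group) of the 27 tested members, listed from glucose uptake at the top to the non-oxidative pentose phosphate branch at the bottom, for epoxomicin and E9, each against DMSO, and for the 2 compounds against each other. Filled points have an adjusted p under 0.05, which 3, 5 and 1 members reach, all of them below 0.

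Both glucose transporter genes fell with both compounds. Slc2a1, which encodes GLUT1, the transporter that activated T cells bring to their surface, had intensities of 1590.6 and 1529.7 with epoxomicin, 1915.2 and 1624.6 with E9, and 2121.5 and 2191.8 with DMSO. No array of either compound reached the DMSO arrays, and the epoxomicin arrays also lay below the E9 arrays. Slc2a1 fell with epoxomicin, with a log2 fold change of -0.46 (SE 0.083, adjusted p = 0.0312, limma), and with E9, with -0.29 (SE 0.083, adjusted p = 0.0466, limma). The mean intensity was 72.3% of that with DMSO for epoxomicin and 82.1% for E9.

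Slc2a3 encodes GLUT3, a transporter with a high affinity for glucose. Its intensities were 665.3 and 539.0 with epoxomicin, 732.7 and 623.2 with E9, and 958.0 and 977.8 with DMSO, so the arrays of the compounds overlapped each other and not the DMSO arrays. It fell with epoxomicin, with a log2 fold change of -0.67 (SE 0.10, adjusted p = 0.0178, limma), and with E9, with -0.50 (SE 0.10, adjusted p = 0.0101, limma). The difference between epoxomicin and E9 did not pass for either transporter: it was -0.17 for Slc2a1 (95% interval -0.36 to 0.013) and -0.17 for Slc2a3 (95% interval -0.40 to 0.068).

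The call of Slc2a1 with E9 passed in 5 of 15 alternative fits, in which its log2 fold change ran from -0.40 to -0.17, and with epoxomicin in 8 of 14, from -0.49 to -0.43. Slc2a3 passed in 12 of 15 and in 11 of 14. In these and all later counts of alternative fits, leaving out an array of the group not compared repeats the fit of the compared groups alone.

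**Figure D2:**
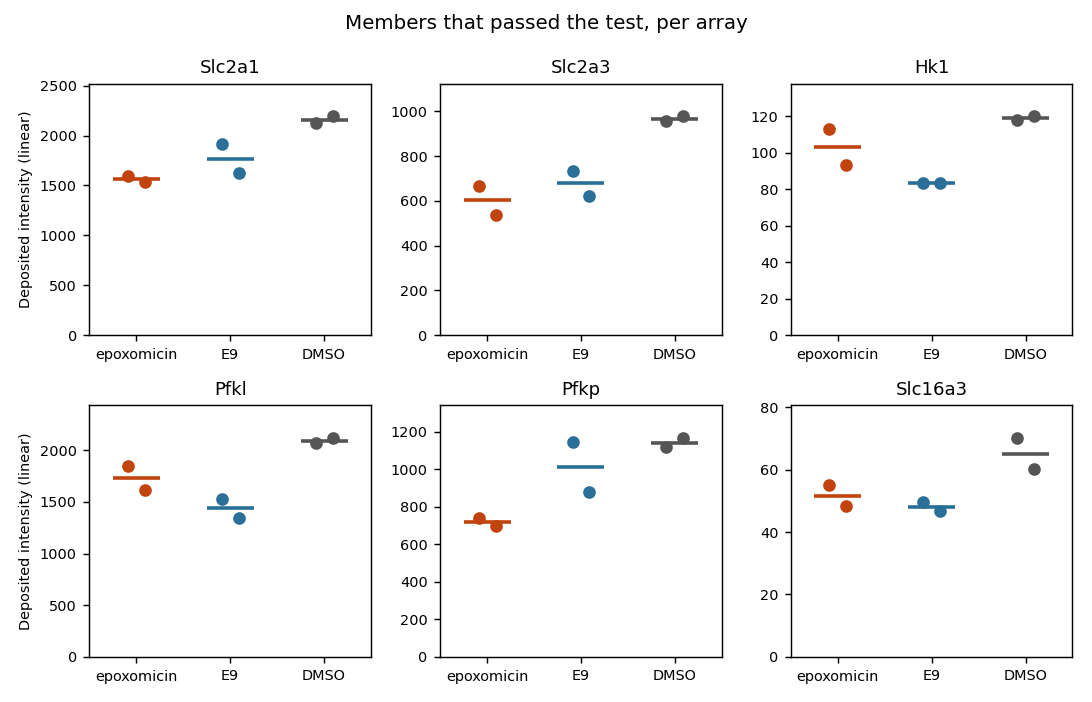
Deposited intensity (linear y axis from 0) of the 6 members that passed in at least 1 comparison, on each array (points) with the mean of the 2 arrays (bar), for epoxomicin, E9 and DMSO. The DMSO arrays are the highest for Slc2a1, Slc2a3, Hk1, Pfkl and Slc16a3, and the epoxomicin arrays of Pfkp lie below all others.

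Hk1, the hexokinase that traps glucose as glucose-6-phosphate, fell with E9. Its intensities were 113.1 and 93.6 with epoxomicin, 83.6 and 83.4 with E9, and 117.8 and 120.0 with DMSO. The E9 arrays were the lowest and close to each other. Hk1 fell with E9, with a log2 fold change of -0.41 (SE 0.080, adjusted p = 0.00726, limma), and it passed in 14 of 15 alternative fits. With epoxomicin its log2 fold change was -0.17 (SE 0.080, adjusted p = 0.476, limma). The difference of epoxomicin minus E9, 0.24, did not pass (95% interval 0.058 to 0.42, adjusted p = 0.0903, limma).

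The 3 phosphofructokinase genes encode subunits of the enzyme that commits sugar to glycolysis, named after liver (Pfkl), muscle (Pfkm) and platelet (Pfkp). Pfkl had intensities of 1848.5 and 1611.8 with epoxomicin, 1529.7 and 1345.1 with E9, and 2069.7 and 2118.1 with DMSO. The E9 arrays were the lowest, the epoxomicin arrays lay between, and no groups overlapped. Pfkl fell with E9, with a log2 fold change of -0.54 (SE 0.087, adjusted p = 0.00247, limma) and passed in all 15 alternative fits, and with epoxomicin the value was -0.27 (SE 0.087, adjusted p = 0.231, limma). A further probe for Pfkl, between 47.0 and 53.8 on all arrays, gave -0.020 with E9.

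Pfkp had intensities of 739.2 and 698.1 with epoxomicin, 1145.7 and 878.2 with E9, and 1119.9 and 1166.6 with DMSO. The epoxomicin arrays lay below all others, and the E9 arrays overlapped those with DMSO. Pfkp fell with epoxomicin, with a log2 fold change of -0.65 (SE 0.11, adjusted p = 0.0231, limma), to 62.9% of the mean intensity with DMSO. With E9 the value was -0.18 (SE 0.11, adjusted p = 0.336, limma). Pfkp was the 1 member that passed in the direct comparison of the compounds: it was lower with epoxomicin than with E9 by a log2 fold change of -0.47 (SE 0.11, adjusted p = 0.0194, limma), where 6.76% of all tested genes were lower and 12.9% passed in all. At an unadjusted p under 0.05, 3 members were lower there, against 11.3% of all tested genes. Higher were 4, against 1640 of all 13253 tested genes.

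A further Pfkp probe, with 288.1 and 235.6 with epoxomicin, 363.3 and 354.1 with E9, and 387.2 and 432.4 with DMSO, gave -0.60 for epoxomicin against DMSO and -0.42 for epoxomicin against E9. Pfkp therefore had a lower value with epoxomicin at both bright probes. The difference from E9 at the tested probe was -0.28 without E9 replicate 1 (adjusted p = 0.0586, limma), -0.51 without epoxomicin replicate 1 (adjusted p = 0.0865, limma) and -0.43 without epoxomicin replicate 2 (adjusted p = 0.145, limma).

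Pfkm had intensities of 168.8 and 147.8 with epoxomicin, 191.1 and 164.7 with E9, and 210.9 and 238.7 with DMSO. Its values, -0.45 with epoxomicin (adjusted p = 0.0578, limma) and -0.30 with E9 (adjusted p = 0.057, limma), both lay just outside the threshold. The DMSO arrays were the highest. Dimmer further probes for Pfkm, from 38.5 to 65.9, gave -0.014 and -0.14 with epoxomicin and 0.049 and -0.031 with E9. Pfkfb3 and Pfkfb4 encode the enzymes that make and break fructose-2,6-bisphosphate, the activator of phosphofructokinase. Pfkfb4 lay between 64.5 and 71.7 on all arrays, with values of -0.024 with epoxomicin and -0.020 with E9. Pfkfb3 was near the limit, with 31.9 and 30.8 with epoxomicin, 37.4 and 31.9 with E9, and 36.8 and 35.9 with DMSO. It was above the limit on both DMSO arrays, on 1 E9 array and on no epoxomicin array.

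None of the 4 members of the aldolase and triose phosphate steps passed. Aldoa and Aldoc encode aldolases, which split fructose-1,6-bisphosphate. Aldoc had 112.3 and 73.2 with epoxomicin, 115.1 and 111.2 with E9, and 171.2 and 147.2 with DMSO. Its values of -0.66 with epoxomicin (SE 0.13, adjusted p = 0.0542, limma) and -0.41 with E9 (SE 0.13, adjusted p = 0.0724, limma) were among the lowest of the members, and no array of either compound reached the DMSO arrays. Aldoc passed with epoxomicin in 8 of 14 alternative fits and with E9 in 7 of 15.

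Aldoa had 4096.5 and 3351.6 with epoxomicin, 4657.7 and 4338.8 with E9, and 4384.5 and 4605.3 with DMSO. Its value was -0.28 with epoxomicin (adjusted p = 0.277, limma) and 0.0006 with E9. The E9 and DMSO arrays overlapped, and the epoxomicin arrays were lower.

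Tpi1, triose phosphate isomerase, had 8905.2 and 7753.6 with epoxomicin, 8574.3 and 7639.9 with E9, and 9944.5 and 9456.3 with DMSO. Its values were -0.22 with epoxomicin and -0.26 with E9 (adjusted p = 0.36 and adjusted p = 0.0797, limma). Another Tpi1 probe had 5519.7 and 4501.5 with epoxomicin, 5021.1 and 4624.1 with E9, and 6779.7 and 6328.4 with DMSO. In a fit of all kept probes this one was lower with E9 by -0.44 (adjusted p = 0.0141 over probes, limma). A dimmer probe, from 301.0 to 386.5, gave -0.19 and did not pass.

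Gapdh, the dehydrogenase whose transcript often serves as a loading control, had 9199.7 and 8538.4 with epoxomicin, 8467.4 on both E9 arrays, and 9593.5 and 9397.6 with DMSO. The DMSO arrays were the highest, and neither value passed: -0.099 with epoxomicin (95% interval -0.25 to 0.050) and -0.16 with E9 (95% interval -0.31 to -0.015, adjusted p = 0.143, limma).

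Lower glycolysis, the steps that pay back ATP, had 5 tested members and none passed. Pgk1, phosphoglycerate kinase, had values of -0.11 with epoxomicin and -0.096 with E9, and its arrays overlapped between all groups. Pkm, pyruvate kinase, had 5609.4 and 4061.9 with epoxomicin, 5135.5 and 4807.6 with E9, and 6089.6 and 5581.6 with DMSO. The epoxomicin arrays differed from each other by more than the E9 or the DMSO arrays did. Pkm had values of -0.29 with epoxomicin (95% interval -0.58 to 0.0016) and -0.23 with E9 (95% interval -0.52 to 0.059), and a further probe under the older name Pkm2 gave -0.28 and -0.21.

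Eno2 and Eno3 encode the enolases named after neurons and muscle. Eno2 was dim, from 38.6 to 41.8, and Eno3 lay between 256.7 and 307.2. Their values ran from -0.048 to 0.12 over both comparisons with DMSO, and none passed.

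Pgam1, phosphoglycerate mutase, had lower values with E9 at both of its 2 probes, which differed from each other with epoxomicin and in their spread. The tested probe had 1035.1 and 842.4 with epoxomicin, 496.0 and 766.8 with E9, and 1158.4 and 826.6 with DMSO. The arrays within each group lay far apart, and its values were -0.066 with epoxomicin and -0.64 with E9 (SE 0.20, adjusted p = 0.0587, limma). The other probe had 714.3 and 728.1 with epoxomicin, 636.8 and 666.2 with E9, and 907.3 and 1073.9 with DMSO. There the groups did not overlap, and in the fit of all kept probes Pgam1 was lower by -0.44 with epoxomicin (adjusted p = 0.0455 over probes, limma) and by -0.58 with E9 (adjusted p = 0.00124 over probes, limma). The plot of paired probes shows the spread of both.

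**Figure D3:**
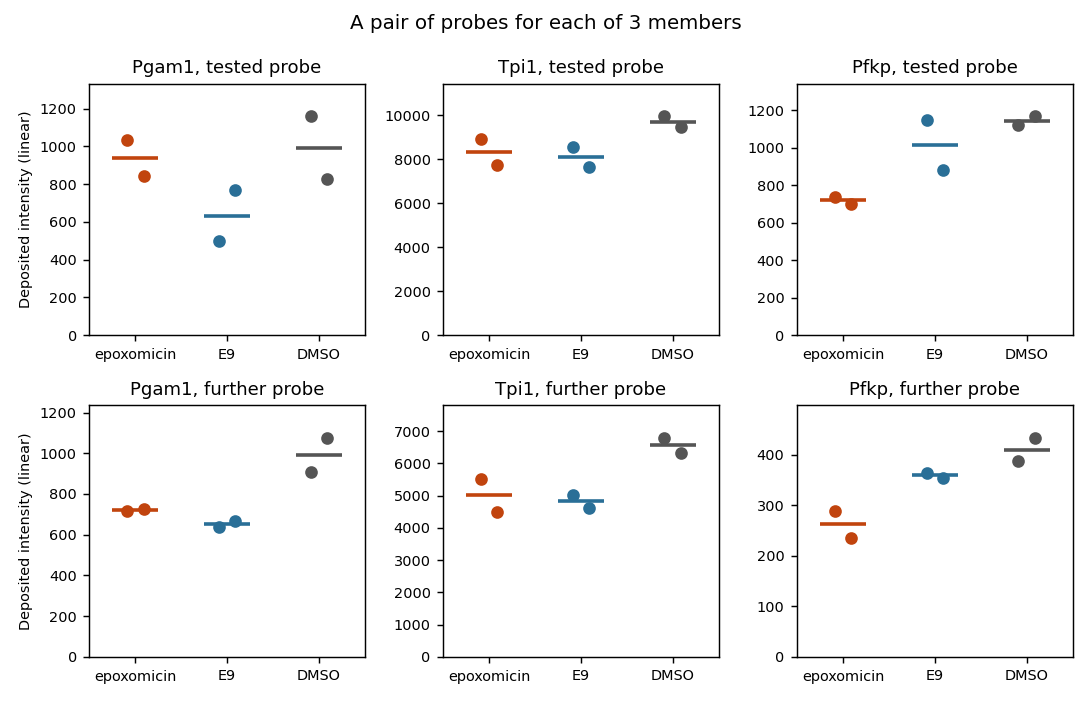
Deposited intensity (linear y axis from 0) at 2 probes each of Pgam1, Tpi1 and Pfkp, on each array (points) with the mean of the 2 arrays (bar), for epoxomicin, E9 and DMSO. The further Pgam1 probe has arrays close together with epoxomicin (714.3 and 728.1) and E9 (636.8 and 666.2), below DMSO, whereas the tested probe has 496.0 and 766.8 with E9.

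Of the 12 members with further kept probes, which numbered 18, a further probe passed for Pfkp and Pgam1 with epoxomicin and for Tpi1 and Pgam1 with E9, each lower. For Pfkp a further probe also passed against E9. This fit was added after the data were seen, and many further probes were near the detection limit.

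At the exit of the pathway, Ldha, the lactate dehydrogenase subunit that predominates in activated T cells, had 11043.5 and 10921.9 with epoxomicin, 11747.9 and 10965.9 with E9, and 11945.0 and 11444.5 with DMSO. The epoxomicin arrays lay just below the DMSO arrays, and the E9 arrays overlapped both. Its values were -0.090 with epoxomicin (95% interval -0.24 to 0.061) and -0.043 with E9 (95% interval -0.19 to 0.11).

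Slc16a3 encodes MCT4, which exports lactate. It had 55.0 and 48.4 with epoxomicin, 49.6 and 46.7 with E9, and 70.1 and 60.1 with DMSO, above the limit on every array but dim. Slc16a3 fell with E9, with a log2 fold change of -0.30 (SE 0.078, adjusted p = 0.03, limma), and with epoxomicin the value was -0.23 (SE 0.078, adjusted p = 0.271, limma). All arrays of the compounds lay below both DMSO arrays. A further probe, from 34.7 to 40.7, gave 0.0001 with E9, and with the mean of the probes the value was -0.15 (adjusted p = 0.111, limma).

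Pdk1 encodes a kinase that closes pyruvate dehydrogenase and so keeps pyruvate out of the mitochondrion. It had 422.2 and 399.6 with epoxomicin, 459.5 and 500.2 with E9, and 494.1 and 422.0 with DMSO. Its values were -0.14 with epoxomicin and 0.066 with E9, and neither passed.

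Slc16a1, which encodes the lactate transporter MCT1, was at 30.8 and 31.6 with epoxomicin, 33.7 and 35.0 with E9, and 31.4 and 30.4 with DMSO, so that 1 E9 array was above the limit. Pgm2 was below the limit on all arrays. Pgm1, the phosphoglucomutase that links glucose-6-phosphate to glycogen, had 1947.5 and 1575.9 with epoxomicin, 1903.5 and 1665.5 with E9, and 2132.0 and 1981.3 with DMSO. The DMSO arrays were the highest, and its values were -0.23 with epoxomicin and -0.20 with E9, neither of which passed. A further probe had 764.0 and 646.3 with epoxomicin, 750.5 and 769.5 with E9, and 1018.4 and 866.4 with DMSO, and did not pass either. The array annotation carries the names of both phosphoglucomutase genes for the probes of this one, and they were assigned here by accession.

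No pentose phosphate member passed in any of the 3 comparisons, though Taldo1 and Rpia did in some alternative fits. In the oxidative branch, Pgd encodes phosphogluconate dehydrogenase, which makes NADPH and releases carbon dioxide. Pgd had 1403.3 and 1365.4 with epoxomicin, 1643.4 and 1449.8 with E9, and 1598.8 and 1490.2 with DMSO, with values of -0.15 with epoxomicin (95% interval -0.33 to 0.020) and 0.0001 with E9 (95% interval -0.17 to 0.18). Pgls, the lactonase before it, had values of 0.062 and -0.013, and its arrays overlapped between all groups.

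In the non-oxidative branch, Taldo1, transaldolase, was the member with the highest value in both comparisons with DMSO. It had 1121.4 and 1172.5 with epoxomicin, 1211.6 and 1034.5 with E9, and 956.8 and 959.7 with DMSO. All 4 arrays of the compounds lay above both DMSO arrays, with values of 0.25 with epoxomicin (95% interval 0.070 to 0.44, adjusted p = 0.239, limma) and 0.22 with E9 (95% interval 0.036 to 0.40, adjusted p = 0.111, limma). Taldo1 passed with E9 without E9 replicate 2 (0.33, adjusted p = 0.022, limma). Tkt, transketolase, had values of 0.010 and 0.16.

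Rpia, which makes ribose-5-phosphate, had 610.7 and 624.2 with epoxomicin, 563.1 and 489.0 with E9, and 619.4 and 585.9 with DMSO. The E9 arrays were the lowest, and the value with E9 was -0.19 (adjusted p = 0.151, limma). Without E9 replicate 1 Rpia passed with E9 (-0.29, adjusted p = 0.0428, limma) and in epoxomicin against E9 (0.32, adjusted p = 0.0317, limma). Rpe, an epimerase, was near the limit, from 31.9 to 38.3, and gave 0.028 and 0.053.

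Arrays of the compounds lay apart from the DMSO arrays in more members below than above. With epoxomicin 16 of 27 members had both arrays below both DMSO arrays and 1 had both above, against 20.5% and 21.3% of all tested genes, 41.8% in all. With E9 these were 13 below and 3 above, against 26.9% and 24.8%, 51.6% in all. Between epoxomicin and E9, 7 were below and 5 above, against 23.1% and 27.2%, 50.3% in all.

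The shift differed between arrays, as the plot of members by array shows. Relative to the mean of the DMSO arrays, the median of the 27 members was -0.077 and -0.21 on the epoxomicin arrays and -0.093 and -0.16 on the E9 arrays, where that of all tested genes was between -0.0081 and 0.0027. Within the epoxomicin group 22 of 27 members were lower on array 2 than on array 1, within E9 21, and within DMSO 14, where 49.7%, 52% and 49.4% of all tested genes were. Without epoxomicin replicate 2, 0 members passed with epoxomicin and 5 had an unadjusted p under 0.05 (limma), and of all 13253 tested genes 1 passed in that fit, against 171 with all arrays.

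With epoxomicin 0 members also passed without DMSO replicate 1 or DMSO replicate 2, with 8 and 9 members at an unadjusted p under 0.05 (limma), and of all tested genes 12 and 16 passed. With E9, 2 members passed without DMSO replicate 1, 3 without DMSO replicate 2 and 8 without E9 replicate 1, and of all tested genes 1310, 1227 and 1877 did, against 2046 with all arrays. Each of these fits left a group with a lone array, which was assumed to vary like the others.

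**Figure D4:**
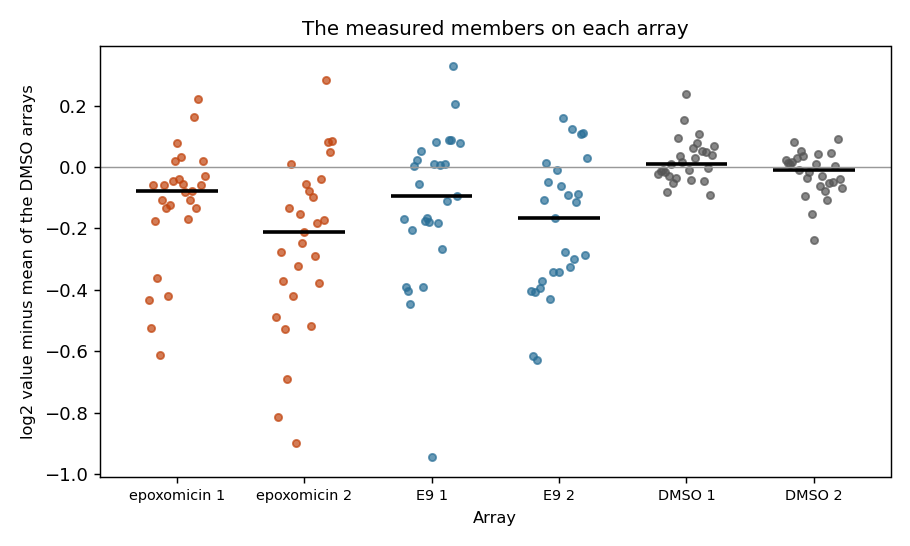
Log2 value minus the mean of the 2 DMSO arrays (y axis) of each of the 27 tested members (points) on each of the 6 arrays, with the median as a bar. The medians are -0.077 and -0.21 for epoxomicin, -0.093 and -0.16 for E9, and 0.010 and -0.010 for DMSO, which is centred by construction.

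Other genes of sugar metabolism and its control were taken from a list of 71, of which 54 were tested. With epoxomicin 2 fell and 0 rose, against 0.566% and 0.724% of all tested genes (limma), with a median of 0.0061. At an unadjusted p under 0.05 (limma) 4 were lower and 4 higher, against 756 and 744 of all 13253 tested genes. With E9 7 fell and 3 rose, against 7.77% and 7.67% of all tested genes, with a median of -0.058. In epoxomicin against E9 4 were higher and 2 lower, against 6.1% and 6.76% of all tested genes. Without DMSO replicate 1 or DMSO replicate 2 the linked genes that passed with E9 numbered 5 and 4, and Slc2a6, Txnip, Irf4 and Uap1 were among them each time.

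The largest log2 fold change among these 54 genes was that of Slc2a6 with E9. Slc2a6 encodes GLUT6, a transporter found mostly inside cells. It had 327.4 and 356.1 with epoxomicin, 94.2 and 88.6 with E9, and 398.9 and 420.4 with DMSO. The E9 arrays were far below all others. Slc2a6 fell with E9, with a log2 fold change of -1.89 (SE 0.070, adjusted p = 2.69e-07, limma), to 22.3% of the mean intensity with DMSO, while with epoxomicin the value was -0.25 (adjusted p = 0.177, limma). Slc2a6 was higher with epoxomicin than with E9 (95% interval of the log2 difference 1.49 to 1.81, adjusted p = 4.78e-07, limma). No other glucose transporter outside the members passed.

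Txnip encodes a protein that draws GLUT1 from the cell surface and that glucose induces. It had 296.3 and 308.0 with epoxomicin, 550.5 and 469.4 with E9, and 327.2 and 353.0 with DMSO. Txnip rose with E9, with a log2 fold change of 0.55 (SE 0.084, adjusted p = 0.00174, limma), and was lower with epoxomicin than with E9 by -0.70 (adjusted p = 0.000401, limma).

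Of 13 tested regulators 4 fell and 1 rose with E9, against 7.77% and 7.67% of all tested genes. Irf4, a transcription factor that T cells use to raise glycolytic genes, had 1742.0 and 1665.5 with epoxomicin, 1190.2 and 1257.1 with E9, and 1811.2 and 1624.6 with DMSO. Irf4 fell with E9, with a log2 fold change of -0.48 (SE 0.075, adjusted p = 0.00194, limma), and epoxomicin and DMSO arrays overlapped. Vhl, which marks HIF-1 for degradation by the proteasome, fell with E9 (-0.37, adjusted p = 0.00902, limma), and Rheb, the activator of mTORC1, rose (0.35, adjusted p = 0.0132, limma).

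Egln3, a prolyl hydroxylase that is itself a target of HIF-1, fell with both compounds. It had 1046.0 and 679.8 with epoxomicin, 1266.0 and 1068.0 with E9, and 1764.6 and 1667.9 with DMSO, with log2 fold changes of -1.002 (SE 0.16, adjusted p = 0.0214, limma) and -0.55 (SE 0.16, adjusted p = 0.0495, limma). With the mean of its probes these were -0.51 (adjusted p = 0.0678, limma) and -0.34 (adjusted p = 0.0622, limma). Hif1a and Myc did not pass. Hif1a gave 0.062 with epoxomicin and 0.10 with E9. Myc gave -0.058 with epoxomicin and -0.21 with E9, the latter just outside the threshold (adjusted p = 0.0551, limma). With E9 Myc passed with the crossed block, without a filter on dim probes and with the mean of its probes, and not in the other alternative fits.

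Side branches held the other named changes. Uap1, an enzyme of nucleotide sugar synthesis, rose with E9 (0.47, adjusted p = 0.00161, limma), and Prps1, which turns ribose-5-phosphate into the precursor of nucleotides, fell (-0.29, adjusted p = 0.0143, limma). Pygb, a glycogen phosphorylase, fell with epoxomicin (-0.32, adjusted p = 0.0425, limma). Gpd2, the mitochondrial glycerol phosphate dehydrogenase, was higher with epoxomicin than with E9 (0.35, adjusted p = 0.0291, limma). In the alternative fits Pygb passed with epoxomicin in 5 of 14, Gpd2 in epoxomicin against E9 in 7 of 15 and Prps1 in that comparison in 4 of 15.

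**Figure D5:**
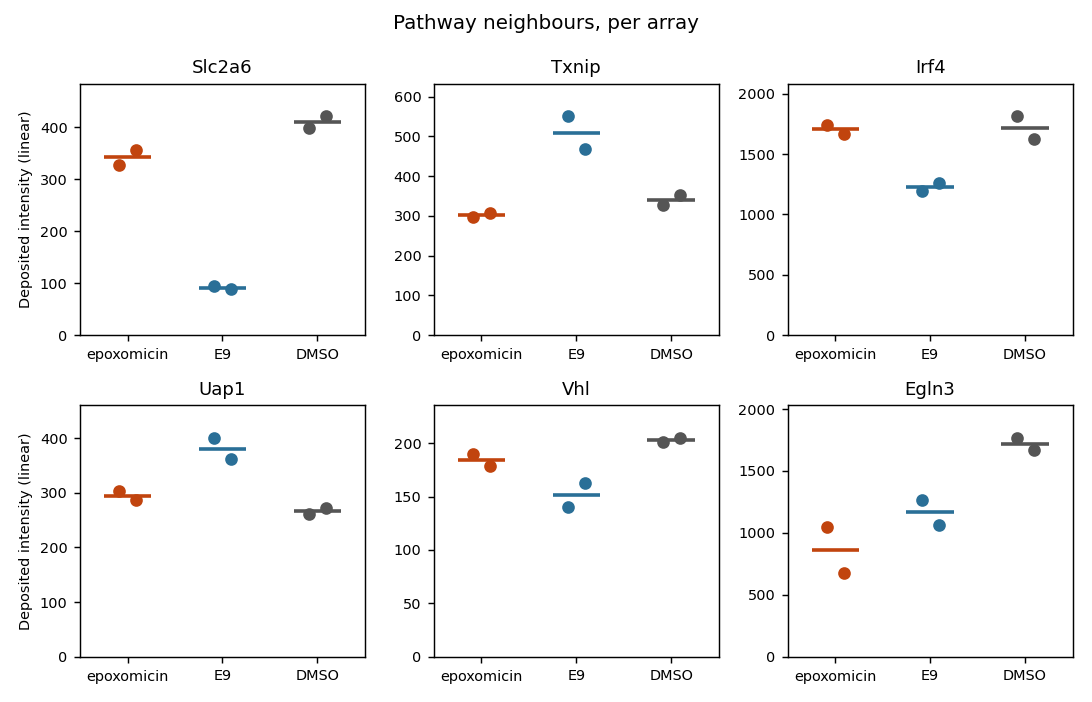
Deposited intensity (linear y axis from 0) of 6 genes linked to the pathway on each array (points) with the mean of the 2 arrays (bar), for epoxomicin, E9 and DMSO. Slc2a6 has 94.2 and 88.6 with E9 and Txnip 550.5 and 469.4, on opposite sides of the other groups.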

How the data were processed

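Intensity values on a linear scale came from a table the authors deposited. All 6 columns hold identical values once sorted, as quantile normalization by the authors gives. The label was streptavidin-Cy3, per the labels' protocols. Scanner software and background handling are not given in the sources used here. The 6 value columns of a non-normalized table match no sample label and were left out.

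Dim probes had a mode of 30.8 with an SD of 2.38 on its lower side, from which a detection limit of 34.7 was set. Intensities were corrected with normexp (offset 50) and log2-transformed. There were 45281 probes, of which 35784 had a single symbol, 0 had several and 9497 had no symbol. Of the named, 31257 were matched to RefSeq by gene ID or accession, 15 through an old symbol of a listed gene, and 4512 kept their symbol. Probes above the limit on at least 2 arrays numbered 19943, and the probe of highest mean stood for each of 13253 genes. limma (lmFit, eBayes) was fitted to the 3 groups in 1 model, with 3 residual and 6.4 prior degrees of freedom and Benjamini-Hochberg adjustment within each of 3 comparisons. The words rose, fell and changed are kept for adjusted p-values under 0.05. The number of arrays limits the precision. The fit was tested on simulated data.

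The members and lists were chosen with earlier results of these data known. All members are named, and of the linked genes the 8 with the largest change per comparison among those that passed. Hif1a, Myc and the members' further probes were added after their values were seen. Alternatives were a replicate block, the compared groups alone, no background correction, an offset of 16, no filter or a filter on all 6 arrays, the mean of a gene's probes, eBayes with trend and robust settings, and leaving out each array. Leaving out either array of the group not compared gave the same fit as the compared groups alone. Counts of alternative fits therefore hold that fit more than once. A crossed block and a fit of all probes were added after seeing the data. The software was R 4.3.3, limma 3.58.1, Python 3.11.15 and matplotlib 3.10.9.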

Additional observations from a re-analysis of the deposited data

How the results depend on the processing

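With epoxomicin against DMSO the 3 members that passed became 5 with the compared groups alone. Without background correction and with trend and robust settings they also became 5. Of all 13253 tested genes 239, 185 and 198 passed in these fits, against 171. Fewer members passed in each fit that left out an epoxomicin or DMSO array. Leaving out an E9 array repeated the fit of the compared groups alone. The 2 linked genes that passed became 1 with the replicate block, where 90 of all tested genes passed. They became 1 without background correction (185 of all) and 1 with an offset of 16 (128 of all). With a filter on all 6 arrays (143 of 9752), the mean of all probes (152) or trend and robust settings (198) 1 also passed. Fewer linked genes passed in each fit that left out an epoxomicin or DMSO array. With E9 against DMSO the 5 members ran from 2 to 8 and the 10 linked genes from 4 to 9 when an array was left out. With epoxomicin against E9 the count of 1 member became 2 without background correction and ran from 1 to 3 when an array was left out, where 3 of the 6 fits did not call Pfkp and called Aldoa and Aldoc, Hk1, or Pfkl and Rpia, and the 6 linked genes ran from 3 to 7. Without background correction 1661 of all tested genes passed in epoxomicin against E9, against 1705 with it. The sign turned in 0 of the fits for members that passed, and in 14, 15 and 17 fits for members that did not (epoxomicin against DMSO, E9 against DMSO, epoxomicin against E9).

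The labels do not say that replicate numbers mark a shared animal or day. Deviations of the same-numbered arrays correlated across genes at 0.217 between epoxomicin and DMSO, -0.319 between E9 and DMSO and -0.204 between epoxomicin and E9. With the replicate block 3, 6 and 1 members passed, which held 2 of the 3, 4 of the 5 and 1 of the 1 called without it. Slc2a1 did not pass in that fit with epoxomicin (adjusted p = 0.0677, limma) or E9 (adjusted p = 0.0657, limma), while Aldoc passed with both and Tpi1 with E9. Of all tested genes 90 passed with epoxomicin, against 171 without the block, and 1754 with E9, against 2046. In epoxomicin against E9 1409 passed, against 1705. The numbers of the E9 arrays were also crossed in the block, a fit added after seeing the data. With E9, 10 members (9 lower and Taldo1 higher, adjusted p = 0.0468, limma) and 15 linked genes then passed. In epoxomicin against E9, 6 members and 12 linked genes did. That fit called more of all 13253 tested genes too: 2748 with E9, against 2046 without a block, and 2382 in epoxomicin against E9, against 1705. Signal over background limits Pfkfb3, Rpe and Eno2, which lay near the detection limit.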

Other observations

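For 2 of the members without a probe, a probe carried the name of a copy elsewhere in the genome. Eno1b, named as a copy of Eno1, had 499.7 and 452.0 with epoxomicin, 510.2 and 630.7 with E9, and 614.0 and 545.2 with DMSO, with log2 fold changes of -0.27 with epoxomicin (adjusted p = 0.345, limma) and -0.027 with E9. Gpi-ps, a pseudogene of Gpi1, was below the limit on all 6 arrays. These values were not counted with the members.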
